A study of Mus musculus with 12 samples.

Results

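Genes of the extracellular matrix, its receptors and the proteases that cut it were followed in mouse glia given interleukin-1β (IL-1β). They were taken from the array's gene annotation by name: collagens (Col and a number), laminin chains (Lama, Lamb, Lamc), integrin subunits (Itga, Itgb), the Adam, Adamts and Adamts-like genes, matrix metalloproteases (Mmp and a number) and their tissue inhibitors (Timp and a number). Of 8734 probes 7153 carried 1 gene symbol, from 5723 genes, and 64 of these probes, from 50 genes, matched. A probe with a value on all 10 arrays used existed for 37 of the 50 genes (74%), and where a gene had several, the brightest stood for it. The rule used names only and no measured change, though it was set with earlier results of these data known.

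The cells were primary mixed glia, cultures that hold several glial cell types side by side, from wild-type mice and from mice without the type 1 IL-1 receptor (IL-1R1-/-). Each culture was kept for 10 to 12 days after isolation and then received either vehicle or rrIL-1β at 10 ng/ml, and RNA was taken after 4 h. This gave 4 groups: wild-type vehicle and wild-type IL-1β with 3 arrays each, and IL-1R1-/- vehicle and IL-1R1-/- IL-1β with 2 usable arrays each. The treatments were paired within cultures, and the design describes the cultures as independent biological replicates. For the mice, strain, sex and age are not stated in the labels. In RNA from mixed cells, fewer cells of a type and less RNA per cell cannot be told apart.

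Collagens form the fibres, networks and membrane-anchored rods of the matrix, and laminins build the basement membrane that astrocyte endfeet contact around brain vessels. Integrins, pairs of an α and a β subunit, hold cells to these proteins, and the β2 integrins are known for their place on microglia and other leukocytes. Matrix metalloproteases and Adamts enzymes degrade matrix, Adam proteases release the outer parts of membrane proteins such as tumour necrosis factor and Notch, and Timp proteins block these enzymes. IL-1β is known to induce several metalloproteases in glia. Timp1, Timp3, Mmp3, Mmp9, Mmp14, Itgb1, Itgav, Itgb8, Col4a1, Col4a2, Col18a1, Adamts1 and Adamts5 are not analysed here.

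Intensity scales differed between cultures, with array medians from 4648.7 to 60399, and values were therefore quantile-normalized on the log2 scale. The deposited pair of IL-1R1-/- replicate 3 was left out: its vehicle column repeated wild-type vehicle replicate 1 at 5959 of 5982 shared probes and its IL-1β column repeated IL-1R1-/- vehicle replicate 1 at 6531 of 6584, apart from a constant factor. Changes along the order of the probes were a further feature of the arrays, and a trend over probe position was therefore subtracted in a second version. Values are those before subtraction unless the sentence says otherwise. Lcn2, which encodes lipocalin-2, a secreted protein known to respond to IL-1β, was higher by 2.90 on the log2 scale in wild-type glia (limma, adjusted p = 1.09e-05) and by 0.15 in IL-1R1-/- glia (adjusted p = 0.906). The Il1r1 probe differed by 0.10 between the vehicle groups (IL-1R1-/- minus wild-type, adjusted p = 0.958). The labels do not state where this probe lies relative to the deleted part of the gene, so it does not check the genotype. Markers of astrocytes (Glul, Sox9, Id4, Slc1a2), microglia (Cd68, Tyrobp, C1qc) and oligodendrocyte lineage cells (Mbp, Olig2, Pdgfra) had values on all arrays. So did those of meningeal fibroblasts (Lum, Ptgds, Igf2), neurons (Nefl, Nefm) and endothelial cells (Tek, Cdh5). A value does not by itself show expression. Slc1a2, Igf2 and Cdh5 had one at the 11, 1.1 and 3.3 percentiles of mean intensity among complete probes.

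In wild-type glia 2 of the 37 genes passed the test for a change with IL-1β: Adam8, a membrane protease known mainly from leukocytes and microglia, rose, and Col23a1, a membrane-spanning collagen, fell. The 2 were 5.41% of the genes, and 6.18% of all 5713 tested probes passed (353 probes, 4.55% higher and 1.63% lower). The median change of the 37 genes was -0.09 on the log2 scale and that of all probes -0.04. Above 0 were 12 of the 37, beside 44.5% of all probes. An unadjusted p under 0.05 was found for 13 of the 37 (35.1%) and for 21.1% of all probes. The 95% interval of the change lay within 2-fold either way for 32 of the 37, as for 91.2% of all probes.

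Adam8 read 13.84, 14.33 and 14.16 on the wild-type vehicle arrays and 14.46, 15.67 and 15.02 on the IL-1β arrays of the same cultures (quantile-normalized log2 intensity, replicates 1 to 3). Every IL-1β value was above every vehicle value. The change was 0.94 ± 0.18 (log2, SE), a 1.92-fold rise in 3 of 3 cultures, with an adjusted p of 0.0176 (limma, Benjamini-Hochberg adjustment over all probes). In IL-1R1-/- glia Adam8 read 14.21 and 14.25 with vehicle and 14.62 and 14.70 with IL-1β, higher in both cultures, by 0.43 ± 0.23 (adjusted p = 0.693). With the position trend removed those cultures gave 0.22 and -0.35, with a mean of -0.06 ± 0.17 (adjusted p = 0.996).

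Col23a1 read 14.64, 14.62 and 14.33 with vehicle and 13.92, 13.72 and 13.70 with IL-1β in wild-type glia. The groups did not overlap, and the fall was -0.75 ± 0.17 in 3 of 3 cultures (adjusted p = 0.0291). A second Col23a1 probe read 14.15, 14.35 and 14.08 with vehicle and 13.44, 14.16 and 13.78 with IL-1β, a smaller difference of -0.40 ± 0.20 that did not pass (adjusted p = 0.281), and of -0.21 ± 0.16 after trend removal. One more Col23a1 probe, with values in 1 wild-type culture only, went the other way there, by 1.18 (adjusted p = 0.0447 with missing values kept), and by 1.29 after trend removal (adjusted p = 0.0513).

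Both calls rested on the pairing and on each of wild-type cultures 1 and 2. Without the replicate block the adjusted p was 0.197 for Adam8 and 0.169 for Col23a1. Without culture 1 it was 0.0583 and 0.0956, and without culture 2 it was 0.108 and 0.125 (limma). Leaving out either IL-1R1-/- culture, which share the estimate of the spread, took Col23a1 to 0.0504.

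Both calls were also lost when the position trend was removed, and with it 0 of the 37 genes passed, against 0.403% of all probes (23 probes). An unadjusted p under 0.05 was then left for 8 of the 37 genes (21.6%, and 11.2% of all probes), and the smallest adjusted p among them was 0.0728. Adam8 was still higher in 3 of 3 wild-type cultures, by 0.37, 0.51 and 0.38, but its mean change was 0.42 ± 0.14 (adjusted p = 0.265). Col23a1 was lower in 3 of 3, with differences of -0.44, -0.24 and -0.24, with a mean of -0.31 ± 0.12 (adjusted p = 0.344).

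**Figure D1:**
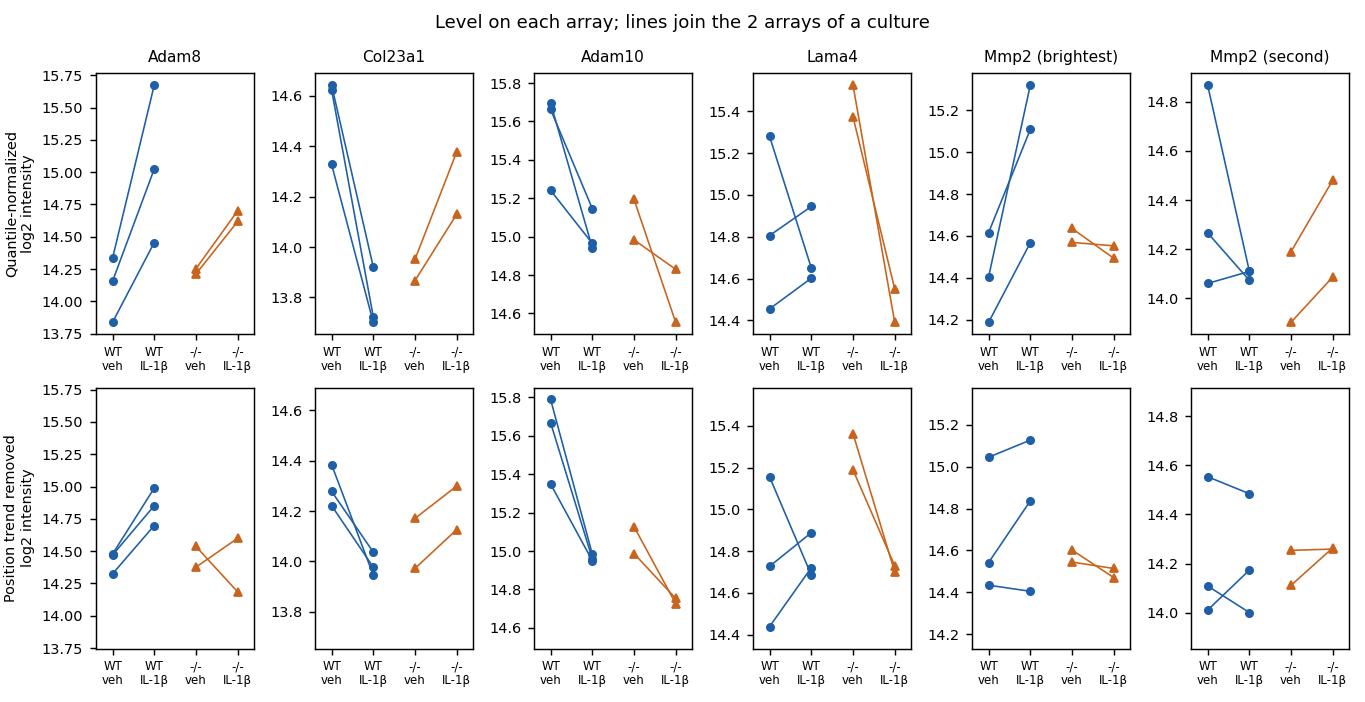
Log2 intensity of the Adam8, Col23a1, Adam10 and Lama4 probes and of both Mmp2 probes on each array (wild-type in blue, IL-1R1-/- in orange), quantile-normalized in the upper row and with the position trend removed in the lower row; lines join the vehicle and IL-1β arrays of a culture. With IL-1β Adam8 is higher and Col23a1 lower in all 3 wild-type cultures in both rows, by less in the lower row, and the gap between the Mmp2 probes shrinks from 0.90 to 0.12.

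Where a probe stood in the order of the array went along with the sign of its change. In wild-type glia 2 of the 20 genes whose probes lay in the first 11 of 23 inferred plates were above 0 with IL-1β, and so were 15.5% of all probes there. In the later plates 10 of 17 genes were above 0, and 70.5% of all probes. The median change of the genes was -0.17 in the first part and 0.11 in the second, beside -0.20 and 0.15 for all probes. After trend removal 12 of 20 and 5 of 17 genes were above 0, beside 51% and 50.2% of all probes. The 12 measured probes within 10 places of Adam8 had a median change of 0.72, against 0.94 for Adam8 itself, and the 12 around Col23a1 one of -0.35. Between neighbouring probes in the order the change correlated at r = 0.636, and at 0.0911 after trend removal (a description over probes, which are not independent).

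For 6 genes there was a pair of complete probes, and the paired probes differed in wild-type change by a median of 0.32 before and 0.15 after trend removal. Mmp2 was the widest: 1 probe, in the later plates, was higher by 0.60 ± 0.18 (adjusted p = 0.0645) among neighbours with a median of 0.40, and the other, in the earlier plates, differed by -0.30 ± 0.19 (adjusted p = 0.396) among neighbours of -0.28. With the trend removed they read 0.12 and -0.00. Col5a2 was next, with a gap of 0.63 between probes of opposite sign that became 0.16. The widest gap after trend removal was 0.20, for Lamc1.

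**Figure D2:**
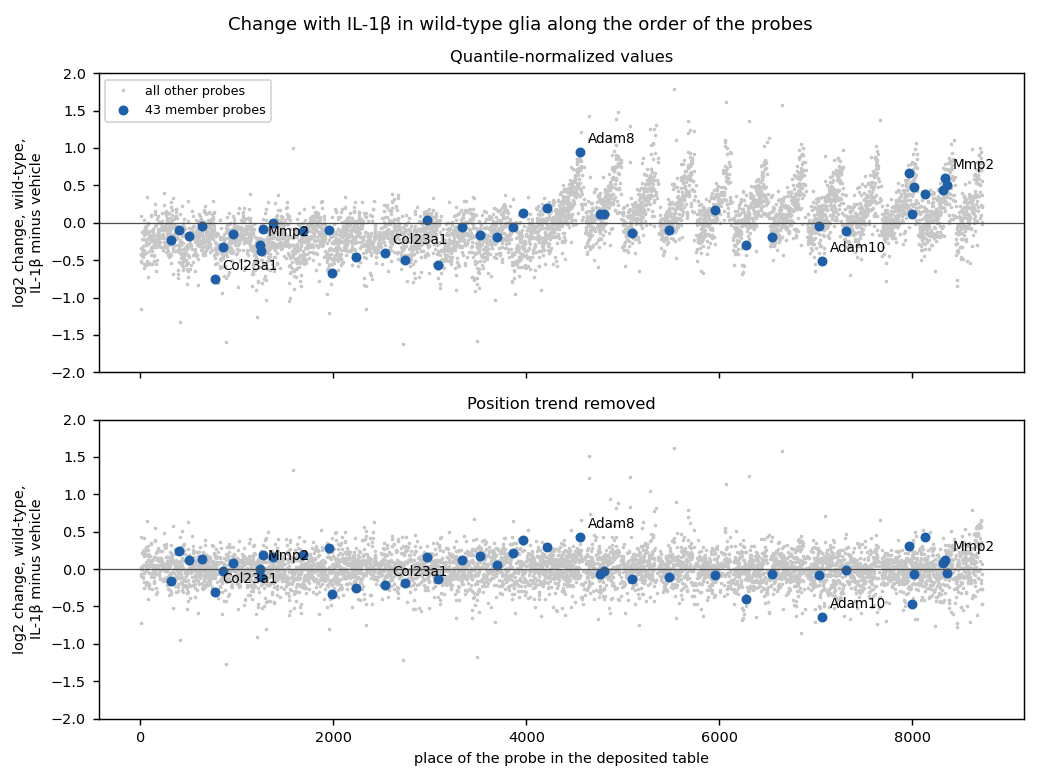
Log2 change with IL-1β in wild-type glia (vertical axis) against the place of each probe in the deposited table (horizontal axis), before and after the position trend was removed; blue points are the 43 complete probes of the matrix, integrin and metalloprotease genes, grey points all other probes, and 5 probes lie outside the plotted range. Before removal the blue points follow the grey bands, with Adam8 on the crest of one, and afterwards most lie near 0.

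Among fibrillar collagens, which form the load-bearing fibres, Col5a2 and Col11a1 had a complete probe, and neither passed. Col5a2 read 15.68, 15.31 and 15.57 with vehicle and 15.43, 14.89 and 14.73 with IL-1β in wild-type glia, lower in each culture on its brightest probe but with overlapping groups. The difference was -0.50 ± 0.18 (adjusted p = 0.121) and became -0.18 ± 0.13 (adjusted p = 0.661) with the trend removed. The second complete Col5a2 probe went the other way, with -0.31, 0.16 and 0.51 in the cultures (mean 0.12 ± 0.19, adjusted p = 0.752), and -0.02 ± 0.13 after trend removal. A further Col5a2 probe, with values in wild-type cultures 1 and 3, differed by -0.63 ± 0.25 (limma with missing values kept, adjusted p = 0.12). After trend removal that probe gave -0.13 ± 0.17. Col11a1 differed by -0.46 ± 0.18 (adjusted p = 0.16), or by -0.26 after trend removal, where culture 2 was higher by 0.16.

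Of 6 other collagens only Col23a1 passed. The rest ran from -0.32 for Col6a1, a chain of the beaded collagen VI filaments, to 0.20 for Col9a1, a collagen that decorates fibril surfaces. Col9a1 was higher in all 3 wild-type cultures, by 0.15, 0.26 and 0.20, and by 0.22, 0.33 and 0.36 after trend removal (mean 0.30 ± 0.12, adjusted p = 0.35). Col22a1 varied most between cultures, with -0.02, 0.71 and -0.96.

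The 3 laminin chains Lama2, Lama4 and Lamc1 lay between -0.11 and -0.06 in wild-type glia, and none passed. Lamc1, the γ1 chain found in most laminins, went up in cultures 1 and 2 (0.27 and 0.29) and down in culture 3 (-0.83). Its second probe was higher by 0.12, and by 0.39 ± 0.12 after trend removal (unadjusted p = 0.00996, adjusted p = 0.255), with 3 of 3 cultures above 0. That probe was dim, at the 1.9 percentile of mean intensity among complete probes. Lama2, a chain of the laminin of glial endfeet and muscle, moved by 0.22 ± 0.16 after trend removal on its brightest probe, again above 0 in every culture. A second Lama2 probe gave 0.14, 0.16 and -0.05 in the 3 cultures after trend removal (mean 0.08).

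Among 8 integrin α subunits the wild-type change ran from -0.57 (Itga5, the fibronectin receptor chain) to 0.67 (Itgae, the αE chain that binds E-cadherin), and none passed. Itgae read 13.87, 14.40 and 14.30 with vehicle and 14.45, 14.84 and 15.28 with IL-1β, groups that did not overlap (0.67 ± 0.22, adjusted p = 0.0873). With the trend removed its cultures differed by 0.47, -0.02 and 0.47. Itga11, a collagen receptor chain, was the more even: 0.49, 0.36 and 0.29 before and 0.41, 0.36 and 0.53 after trend removal, with a mean of 0.43 ± 0.12 (adjusted p = 0.194).

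Itga6, a laminin receptor chain, was the gene whose sign turned most clearly with position. Its 3 cultures gave -0.48, 0.47 and 0.35 (mean 0.11) before trend removal and -0.88, -0.39 and -0.15 (mean -0.47 ± 0.16, adjusted p = 0.265) after it. Probes around it had a median of 0.64. Itgam, the αM chain that marks microglia and macrophages as CD11b, differed by -0.19 ± 0.17 (adjusted p = 0.574) and by 0.05 ± 0.14 with the trend removed, and its 95% interval then ran from -0.26 to 0.36. Itgax, the CD11c chain, gave -0.75, -0.41 and 0.74 in the 3 cultures.

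Of the 3 β subunits Itgb5, which pairs with αV, was lower in wild-type glia and Itgb2, the shared β2 chain of leukocyte integrins, higher, neither past the threshold. Itgb5 read 15.17, 15.29 and 14.98 with vehicle and 14.77, 14.83 and 13.81 with IL-1β, so that every IL-1β value lay under every vehicle value (-0.68 ± 0.20, adjusted p = 0.0692). It stayed lower in 3 of 3 cultures after trend removal, by -0.33 ± 0.14 (adjusted p = 0.381). Itgb2 was higher by 0.51 ± 0.18 (adjusted p = 0.11), its probe standing among neighbours with a median of 0.57, and differed by -0.05 ± 0.12 after trend removal. Itgb3, the β3 chain, moved from -0.09 to 0.28 between the versions.

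Apart from Adam8, none of the 8 ADAM genes passed in wild-type glia on its complete probe. A further Adam19 probe, with values in 1 wild-type culture, passed with missing values kept (1.30 ± 0.32, adjusted p = 0.0352) and not after trend removal (0.77 ± 0.23, adjusted p = 0.183). The complete Adam19 probe gave 0.11 ± 0.17. Adam10, the protease that cleaves Notch and the amyloid precursor protein at the cell surface, read 15.24, 15.70 and 15.66 with vehicle and 14.96, 14.94 and 15.15 with IL-1β. No values overlapped, and the difference was -0.51 ± 0.18 (adjusted p = 0.113). Adam10 was the gene of smallest p after trend removal: -0.64 ± 0.13, with -0.40, -0.71 and -0.80 in the 3 cultures (adjusted p = 0.0728), among neighbours whose median was 0.08 before removal. Adam17, which releases tumour necrosis factor, differed by -0.38 ± 0.20 (adjusted p = 0.298), or by -0.11 ± 0.14 after trend removal, with cultures on both sides of 0. Adam9 differed by 0.17 and -0.07 in the respective versions. Adam33 was higher by 0.48 ± 0.19 (adjusted p = 0.16) among neighbours with a median of 0.59, and differed by -0.07 with the trend removed. Adam22, at the 7.6 percentile of mean intensity, gave 0.12, 0.11 and -0.55 in the 3 wild-type cultures. After trend removal these were 0.45, 0.26 and -0.16.

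The 4 secreted Adamts and Adamts-like genes ran from -0.23 to 0.44 and none passed. Adamts4, an aggrecanase that cuts the chondroitin sulphate proteoglycans of brain matrix, was nearly level, with 0.08, 0.14 and -0.10 in the 3 wild-type cultures (0.04 ± 0.18), and its 95% interval after trend removal ran from -0.12 to 0.45. Adamts10 was higher by 0.44 ± 0.18 (adjusted p = 0.183) and by 0.08 ± 0.13 after trend removal. Adamtsl1 was lower in all 3 cultures only after trend removal, by -0.10, -0.26 and -0.13. Adamts14, at the 9 percentile of mean intensity, gave 0.18, -0.04 and -0.67 in the 3 wild-type cultures. After trend removal these were 0.24, 0.14 and 0.01.

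For the metalloproteases proper, Mmp2 (gelatinase A) has been given above with both its probes, and Mmp23, a membrane-bound relative, differed by -0.19 ± 0.18, and by -0.07 ± 0.15 after trend removal. Timp2, which both inhibits Mmp2 and takes part in its activation, read 15.86, 16.31 and 16.00 with vehicle and 15.46, 15.67 and 16.15 with IL-1β on its complete probe. The difference was -0.30 ± 0.20 (adjusted p = 0.414), and with the trend removed -0.40 ± 0.13 (adjusted p = 0.245), lower in every culture by -0.46, -0.53 and -0.22. Timp2 was the gene whose profile over the 10 arrays was most like that of Adam10, at r = 0.691 before and 0.735 after trend removal (Pearson, a description across arrays that share treatment and culture).

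A second Timp2 probe had values in wild-type cultures 1 and 2 and in IL-1R1-/- culture 1, and was examined after its values were seen. Its deposited intensities fell from 75560.1 to 23614.1 and from 27946.2 to 19322.8 with IL-1β in the wild-type cultures, and went from 45943.4 to 136953 in the IL-1R1-/- culture. The brightest probe read 91744.7 and 84029.1 on those last arrays, so the probes of Timp2 disagreed there. Fitted with missing values kept, the wild-type change was -1.08 ± 0.24 (adjusted p = 0.0295), and -1.38 ± 0.17 (adjusted p = 0.0091) with the trend removed. In that fit 11.7% of all 8654 probes passed before and 1.24% after trend removal. Without wild-type culture 1 the change was -0.76 (adjusted p = 0.152), or -1.21 (adjusted p = 0.0871) with the trend removed.

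**Figure D3:**
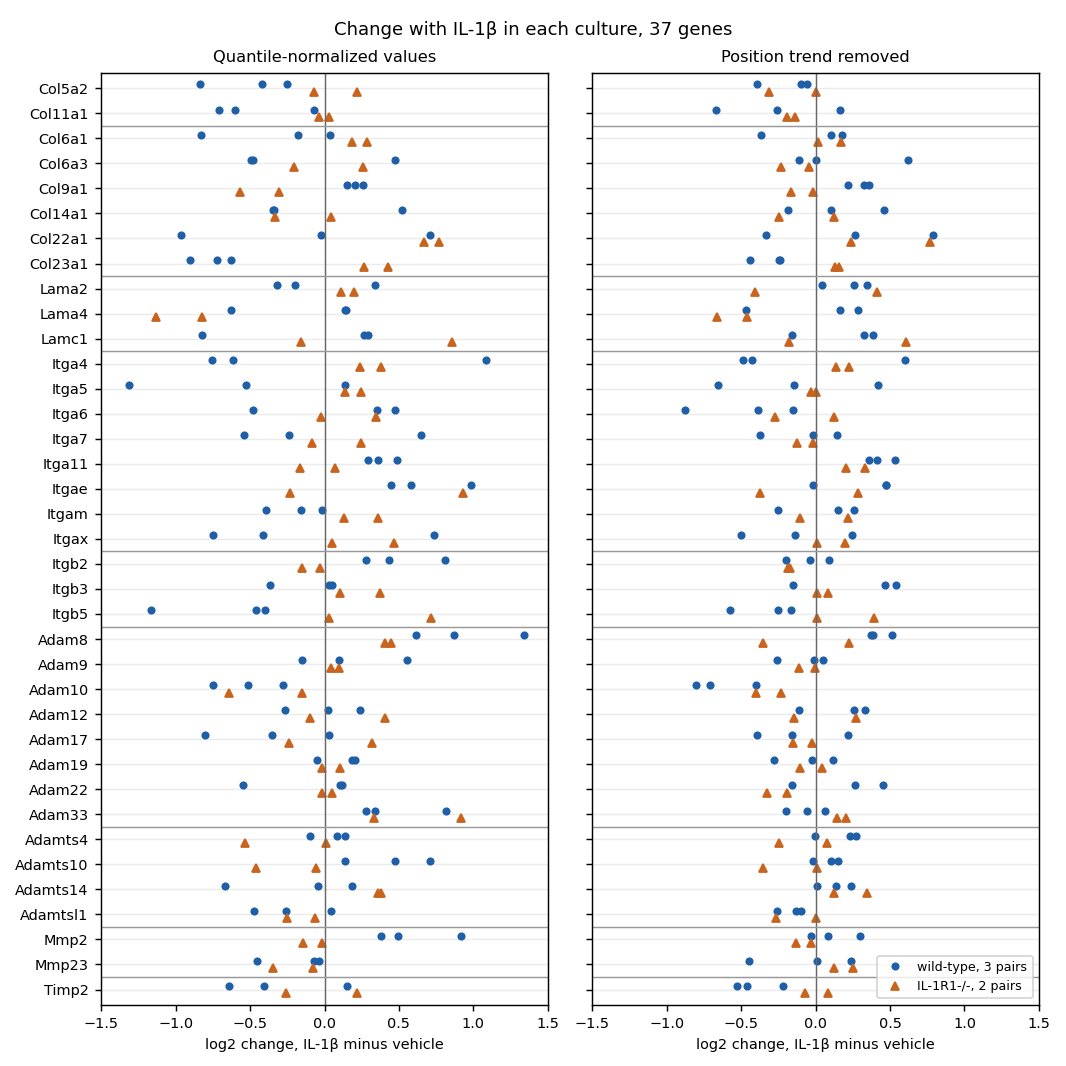
Log2 change with IL-1β in each culture for the 37 genes, ordered by role and separated by lines (collagens, laminins, integrin α and β subunits, ADAM, Adamts, metalloproteases, inhibitor); blue points are 3 wild-type cultures, orange triangles 2 IL-1R1-/- cultures, with quantile-normalized values on the left and the position trend removed on the right. All 3 blue points lie above 0 for 8 genes on the left and 5 on the right, and under 0 for 7 genes on either side.

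Before trend removal 8 of the 37 genes (21.6%) were higher in every wild-type culture and 7 (18.9%) lower, beside 19.3% and 20.6% of all probes. After it 5 (13.5%) were higher and 7 (18.9%) lower, beside 14.9% and 15.1%. Adam8, Col9a1 and Itga11 were higher, and Adam10, Col23a1, Col5a2 and Itgb5 lower, in every wild-type culture in both versions.

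The 13 genes with no complete probe were Adam15, Adamtsl5, Col1a1, Col3a1, Col6a6, Col11a2, Col15a1, Col27a1, Itga3, Lama5, Lamb2, Lamc3 and Mmp19. Itga3 had values in wild-type culture 2 alone, 5760.3 with vehicle and 5238.39 with IL-1β. The other 12 were fitted with missing values kept, and none passed in any comparison in either version. Mmp19, a broad-range metalloprotease, came nearest in wild-type glia, with 36594.7 against 46431.1 in culture 1 and 10823.8 against 23291.3 in culture 2 (vehicle against IL-1β, deposited intensity). That change was 0.67 ± 0.25 (adjusted p = 0.103) and 0.09 ± 0.16 after trend removal. In IL-1R1-/- glia Mmp19 was higher too, by 0.51 ± 0.25 (limma, adjusted p = 0.675), and by 0.52 ± 0.16 after trend removal (adjusted p = 0.487). Adam15, an ADAM protein that also binds integrins, differed in wild-type glia by -0.59 ± 0.23 (adjusted p = 0.116). Its change became -0.12 after trend removal. Lamb2, the laminin β2 chain, differed there by -0.57 (adjusted p = 0.142), and by -0.32 with the trend removed. A second Lamb2 probe gave -0.13, and -0.01 with the trend removed. Col1a1 and Col3a1, the chains of the main fibrous collagens, differed by -0.17 and -0.35 (adjusted p = 0.672 and 0.334). Col1a1 became -0.30 with the trend removed, while Col3a1 turned to 0.10. A second Col3a1 probe gave 0.14, and -0.08 with the trend removed. The sign of Col3a1 thus differed between its probes and between the versions.

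In IL-1R1-/- glia 0 of the 37 genes passed for IL-1β, as did 0 of all complete probes (0%) with limma, in both versions, and with missing values kept 0% of probes passed before and 0.0116% after trend removal. An unadjusted p under 0.05 was found for 3 of the 37 before and 1 after trend removal (8.11% and 2.7%), beside 7.6% and 6.28% of all probes (434 and 359). Both cultures were higher for 14 genes (37.8%, and 31.9% of all probes) and lower for 8 (21.6%, and 31.3%). After trend removal these were 11 and 11 genes (29.7% each, beside 27.7% and 29.4%). The largest difference was in Lama4, the α4 laminin chain of vessel walls. It read 15.53 and 15.37 with vehicle and 14.39 and 14.55 with IL-1β, lower in both cultures (-0.98 ± 0.24, adjusted p = 0.601), and by -0.56 ± 0.19 with the trend removed (adjusted p = 0.608). Wild-type Lama4 gave 0.14, -0.63 and 0.15. The Lama4 call depended on the fit: it passed when only the IL-1R1-/- arrays were fitted (adjusted p = 0.00967) and without quantile normalization (-1.26, adjusted p = 0.00807). The share of all probes that passed in those fits is not given here.

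Col22a1, a collagen of tissue junctions, was higher in both IL-1R1-/- cultures, by 0.77 and 0.67 (mean 0.72 ± 0.30, adjusted p = 0.62). With the trend removed its cultures gave 0.77 and 0.24. Col22a1 passed only when the IL-1R1-/- arrays were fitted alone (adjusted p = 0.0357), a fit whose share of all probes is not given here. Adam33 was higher by 0.33 and 0.92 in the IL-1R1-/- cultures, and by 0.14 and 0.20 after trend removal. Adamts14 was higher in both of these cultures too, by 0.38 and 0.36 (after trend removal 0.35 and 0.12). Adam10 was lower in both, by -0.15 and -0.64 (after trend removal -0.23 and -0.40), the same direction as in wild-type glia. Col9a1 gave -0.57 and -0.31, against its small positive values in wild-type glia, and -0.16 and -0.02 after trend removal.

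The difference between the genotypes in their response was tested directly, as the change in wild-type minus that in IL-1R1-/- glia. None of the 37 genes passed in either version, and 0.158% of all probes did (9 probes). An unadjusted p under 0.05 was found for 6 of the 37 before and 4 after trend removal (16.2% and 10.8%), beside 14.1% and 8.07% of all probes. For Adam8 the difference was 0.51 ± 0.29 (adjusted p = 0.447), and 0.49 ± 0.22 (adjusted p = 0.611) with the trend removed, with a 95% interval from 0.01 to 0.97 there. Its rise in wild-type glia was thus not shown to differ from the change in IL-1R1-/- glia.

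Col23a1 had the smallest p of this comparison, falling in wild-type and reading 13.87 and 13.95 with vehicle and 14.13 and 14.38 with IL-1β in IL-1R1-/- glia. On this probe no change of one genotype overlapped those of the other. The difference was -1.095 ± 0.27, with a 95% interval from -1.67 to -0.52 (adjusted p = 0.134), and after trend removal it was -0.45 ± 0.19 (adjusted p = 0.601). On the second complete Col23a1 probe the cultures overlapped, with -0.71, -0.19 and -0.30 in wild-type and -0.56 and 0.36 in IL-1R1-/- glia, and the difference was -0.30 ± 0.32 (adjusted p = 0.72). The Col23a1 probe with values in 1 wild-type culture only differed the other way, by 1.07 before and 1.07 after trend removal. Itgb5 differed by -1.05 ± 0.32 (adjusted p = 0.191) and by -0.53 ± 0.22 (adjusted p = 0.573). Lama4 differed the other way, by 0.86 ± 0.31 (adjusted p = 0.242) and 0.55 ± 0.25 (adjusted p = 0.608). Without quantile normalization, with medians aligned or with no alignment, Col23a1, Lama4 and Adamts10 passed, at adjusted p from 0.0199 to 0.0436. The share of all probes that passed in those fits is not given here, so these passes are not a result about the genes.

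The intervals show what these arrays could resolve. The 95% interval of the difference between genotypes lay within 2-fold for 17 of the 37 genes before and 35 after trend removal, and for 58.6% and 90.7% of all probes. The second Timp2 probe passed here too, at -2.42 ± 0.42 (adjusted p = 0.0446) and -2.58 ± 0.30 with the trend removed (adjusted p = 0.0129), where 0.74% and 0.428% of all probes passed. It rests on 1 IL-1R1-/- culture. Without wild-type culture 1 the trend-removed difference was -2.41 (adjusted p = 0.0601). Its complete probe differed by -0.27 ± 0.31 and by -0.41 ± 0.20 (adjusted p = 0.734 and 0.645).

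**Figure D4:**
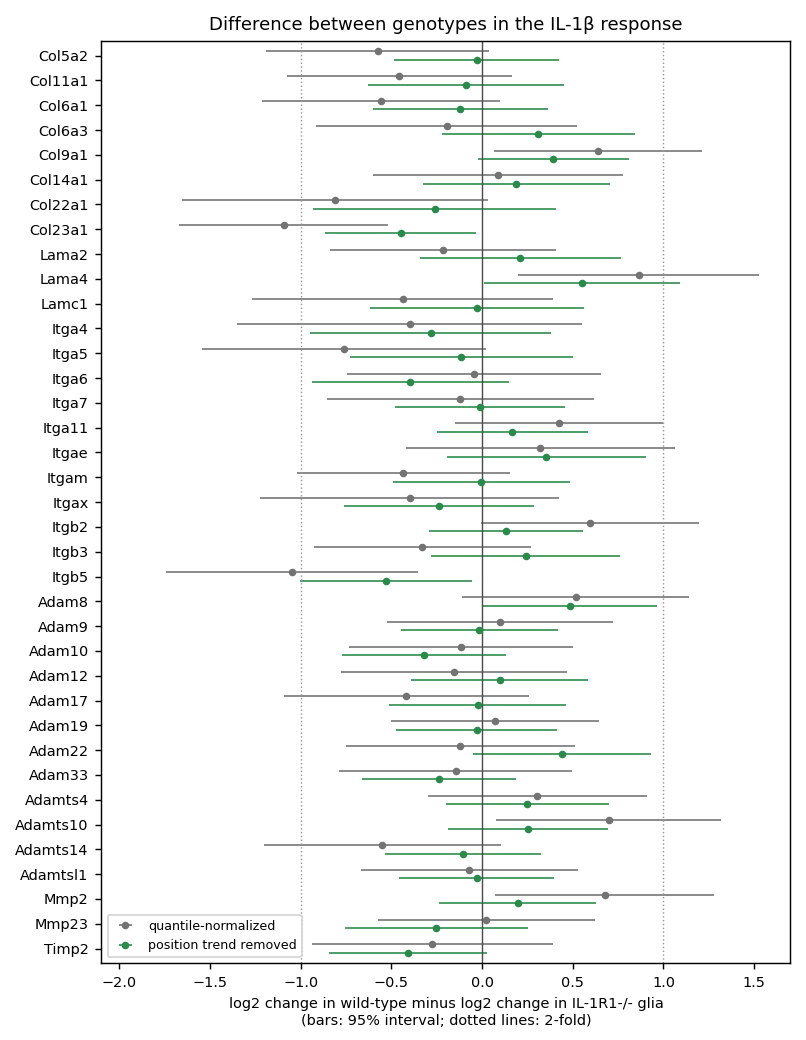
Change with IL-1β in wild-type glia minus that in IL-1R1-/- glia for the 37 genes (log2, points, with 95% intervals as bars; dotted lines mark 2-fold), quantile-normalized in grey and with the position trend removed in green. Col23a1 and Itgb5 lie farthest to the left and Lama4 farthest to the right before removal, and the green points are nearer to 0 for these genes.

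With vehicle alone, the genotypes were compared as IL-1R1-/- minus wild-type. None of the 37 genes passed, and 0.0175% of all probes did before trend removal (1 probe) and 0% after it. The unadjusted p was under 0.05 for 5 and 3 of the 37 (13.5% and 8.11%), beside 8.56% and 7.74% of all probes. The brightest Col5a2 probe was lower in IL-1R1-/- glia, with 14.69 and 14.89 against 15.68, 15.31 and 15.57 in wild-type (-0.73 ± 0.26, adjusted p = 0.382), and its groups did not overlap. The second complete Col5a2 probe overlapped, with 14.43 and 14.26 against 14.61, 13.91 and 14.54 (-0.01 ± 0.29, adjusted p = 0.993). Adamts10, with 15.44 and 15.29 against 14.51, 14.98 and 14.69, was higher and did not overlap either (0.64 ± 0.27, adjusted p = 0.512). The incomplete Col5a2 probe differed by -0.88 ± 0.30 (limma with missing values kept, adjusted p = 0.397), and by -0.50 ± 0.20 after trend removal.

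Col23a1 differed by -0.62 ± 0.21 (adjusted p = 0.377) and Adam17 by -0.63 ± 0.27 (adjusted p = 0.543). After trend removal these became -0.35 for the brightest Col5a2 probe, 0.42 for Adamts10, -0.22 for Col23a1 and -0.37 for Adam17. Adam10 had the smallest p then, at -0.54 ± 0.17 (adjusted p = 0.48). Under IL-1β none of the 37 passed either, beside 0.07% and 0.105% of all probes (4 and 6 probes). Adam33 was higher in IL-1R1-/- glia by 0.53 before and 0.49 after trend removal, and Adam8 differed by -0.45 after trend removal (adjusted p = 0.864). These comparisons share their arrays with the IL-1β comparisons.

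Other matrix genes in wild-type glia were taken from lists by role, chosen with earlier results of these data known. They are read beside all probes, of which 6.18% passed and whose median change was -0.04. None of 10 measured of 39 listed matrix glycoproteins and proteoglycans passed, and their median was -0.07, with Fmod, a collagen-binding proteoglycan, lowest at -0.61 (adjusted p = 0.0512). None of 3 measured of 15 collagen-processing genes passed (median -0.15, and -0.02 after trend removal). Bmp1, which trims procollagens, differed by -0.59 (adjusted p = 0.0887). Of 4 measured of 17 protease-control genes Cst3, the cathepsin inhibitor cystatin C, fell by 0.90 (adjusted p = 0.0187), and by 0.60 after trend removal, where it did not pass (adjusted p = 0.107). The median of these 4 was -0.36 with 0 above 0, and -0.30 with 1 above 0 after trend removal, where the median of all probes was 0.00. None of 13 measured of 37 adhesion receptors and integrin adaptors passed, with a median of -0.06, and of -0.12 after trend removal.

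Markers of cell types moved beside these values. Of 4 measured of 12 astrocyte markers Glul and Id4 fell in wild-type glia (-0.84 and -1.60, adjusted p = 0.0291 and 0.0008), Id4 alone passing after trend removal. The other measured markers, Slc1a2 and Sox9, did not pass, at 0.10 and -0.20 (limma, adjusted p = 0.825 and 0.614). After trend removal Slc1a2 and Sox9 gave 0.14 and -0.63. The mean of the 4 ran from 15.1 to 15.4 on the vehicle and from 14.4 to 14.7 on the IL-1β arrays of wild-type glia, without overlap. None of 7 measured of 20 microglia and macrophage markers passed (Itgam is one of them), and their mean ran from 15.5 to 15.6 with vehicle and from 15.1 to 15.6 with IL-1β. None of 3 of 10 oligodendrocyte lineage, 2 of 9 neuron or 3 of 13 meningeal fibroblast markers passed. Of 5 measured of 13 endothelial and mural markers Emcn rose by 0.84 (adjusted p = 0.0187) and did not pass after trend removal. The part of these cells in the changes of Adam8 and Col23a1 was not tested.

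The genes whose profile over the 10 arrays was most like that of Adam8 were Itgae (r = 0.722), Adam33 (0.666) and Mmp2 (0.618), and after trend removal Lama2 (0.662), Adam12 (0.532) and Col9a1 (0.459). For Col23a1 they were Itgb5 (0.719), Col5a2 (0.634) and Itga5 (0.6), and after trend removal Itgax (0.658), Itga7 (0.533) and Adam10 (0.384). None of the 3 genes nearest to Adam8 or to Col23a1 was the same in both versions. These correlations are descriptions over arrays that share cultures, treatment and probe position.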

How the data were processed

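Per the labels, TRIzol RNA was DNase-treated and reverse transcribed with 33P-labelled dCTP. The authors deposited linear spot intensities for 12 arrays and 8734 probes; the sources used here do not state software, background correction, normalization or genome build. Gene symbols came from the platform annotation, and 0 were changed by a current gene table. Log2 values of the 5713 probes (65.4%) complete on 10 arrays were quantile-normalized and fitted with limma 3.58.1 (R 4.3.3, statmod 1.5.0), blocking on culture, with an IL-1β effect for each genotype. Genotypes were compared through the 4 group means, taking culture as random (duplicateCorrelation, 0.388, or 0.452 after trend removal). P-values are two-sided, adjusted by Benjamini and Hochberg over all probes, with a threshold of 0.05. Errors are SE.

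For the trend, plates of 16 by 24 wells (23 plates, a step after plate 11) were inferred from the values, and a loess surface over row and column (span 0.2, degree 1), fitted to how each array departed from the average array, was subtracted. The pairing comes from the design text and the replicate numbers; deviations within cultures correlated at 0.468, 0.582 and 0.261 (wild-type) and 0.562 (IL-1R1-/-, 1 value). The scripts were tested on simulated data. Named genes were those past the threshold, the 5 per direction of smallest p in each comparison other than that under IL-1β, a list by role, further probes of these, the 5 brightest and the 5 dimmest, and the 3 most alike in profile; the second Timp2 probe and other genes named by role were chosen after their values were seen. Members and lists were chosen with earlier results of these data known. No sequences are shown.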

Additional observations from a re-analysis of the deposited data

Results flagged for a closer look

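The second Timp2 probe differed between genotypes in its response to IL-1β by -2.42 on the log2 scale (limma with missing values kept, adjusted p = 0.0446), being lower in both wild-type cultures with a value, by -1.40 and -0.76, and higher in the single IL-1R1-/- culture with one, by 1.35. With the position trend removed the cultures gave -1.55, -1.21 and 1.20. The complete Timp2 probe gave 0.21 in that IL-1R1-/- culture, and 0.08 with the trend removed. The probes' sequences are not among the files used here, and which transcripts each detects was not tested.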

How the results depend on the processing

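The count of 2 genes passing in wild-type glia became 0 with the position trend removed. This held with or without missing values kept, and with any culture left out. It was 0 without the replicate block and 0 with an unmoderated test. With all 12 columns it was 1 (Adam8, limma, adjusted p = 0.0101), but there the Col23a1 probe lacked a value and was not tested. It was 1 with the wild-type arrays alone and 1 with the next brightest probe of each gene. Without normalization between arrays it was 4 (Adam8, Mmp2, Itgae and Col23a1). Leaving out 1 culture at a time gave 0 to 2, with 0 without wild-type replicate 1 or 2. Median centring gave 3, keeping missing values 3, and leaving out the dimmest probes 2. The share of all probes that passed moved as well. It was 6.18% in the main fit, 0.403% with the trend removed and 11.7% with missing values kept. For the other settings that share is not given here, so these counts and those that follow are not results about the genes. Adam8 passed in 9 of 20 other settings (0.35 to 1.10) and Col23a1 in 5 of 20 (-0.81 to -0.24). In IL-1R1-/- glia the count of 0 became 2 with those arrays alone, 1 without normalization and 1 with median centring. For the difference between genotypes it became 3 without normalization and 3 with median centring, and fits of 1 genotype give no value. Both comparisons of genotypes kept 0 in every setting. Among 17 genes followed in wild-type glia 288 of 337 values kept their sign and 49, none of them of a call, did not. The replicate block changed no other call. The cause of these shifts was not tested. The trend was removed with a layout inferred from the values, 3 and 2 cultures limit the precision, and background in the intensities is unknown.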
